A study of Mus musculus and Rattus norvegicus with 12 samples.

Results

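Glycolysis and oxygen-sensing genes were followed in 12 blastocyst-derived cell lines, 8 from mouse and 4 from rat. The set holds 36 genes chosen by symbol: 19 glycolytic enzymes and regulators from the hexokinases to the lactate dehydrogenases, 4 pyruvate dehydrogenase kinases, and 13 genes of oxygen sensing or hypoxia induction. All 36 have a row among the 24411 genes of the mouse count tables, and 33 have one among the 17315 genes of the rat tables. Gpi1, Egln1 and Ero1l have no rat row under these symbols. After the filter on low counts 32 members were tested, and Aldoc, Eno1, Pdk2 and Pdk4 were not.

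The mouse lines were all of the ICR strain and each was derived independently. XEN cells are stem cells of the extraembryonic endoderm, the layer of the blastocyst from which the yolk sac is lined. The lines XEN1 (female), XEN2 and XEN5 (male) were grown on mouse embryo fibroblasts in serum. The pXEN lines pXEN2 (male), pXEN4 and pXEN6 (female) were grown by the protocol used for the rat XENP lines. The rat lines were CX1 (male) and MAX8 (female) of the WKY strain and MAX2 (female) and MAX3 (male) of the F344 strain. The embryonic stem (ES) lines ES2 (male) and ES3 (female), which are pluripotent, were grown in serum with LIF and 2i. No line carries a stated transgene, each library is 1 line, and RNA was taken after 2 days of culture. Medium, feeders and cell identity change together between the groups and cannot be told apart. The labels state no oxygen tension.

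Glycolysis splits glucose into pyruvate in the cytoplasm, and lactate dehydrogenase turns pyruvate into lactate. Pyruvate dehydrogenase kinases restrain pyruvate dehydrogenase, which turns pyruvate into acetyl-CoA inside mitochondria. The transcription factors HIF-1α (Hif1a) and HIF-2α (Epas1) pair with ARNT (Arnt). In the presence of oxygen they are hydroxylated by the prolyl hydroxylases Egln1, Egln2 and Egln3, bound by VHL and degraded, so that much of their control lies at the protein level, which RNA counts do not show. When oxygen is low they induce many glycolytic genes, Pdk1, Egln3 and the genes Kdm3a, Bnip3, Bnip3l, Ankrd37, Ero1l and Ndrg1.

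Gene counts per line ran from 2661691 to 3483069 in mouse, of which the ribosomal RNA precursor Rn45s took 20.7% to 50.1%, and from 1047535 to 1242937 in rat. Levels are given as CPM (counts scaled to a common library total), TMM-scaled in mouse and unscaled in rat. Mouse and rat CPM are not on one scale and were not tested against each other. Of the markers of the labelled identities, all 7 primitive endoderm markers had counts in pXEN, XEN and rat XENP lines, with a summed level of 1078 CPM or more, against 5.35 to 6.24 CPM in ES. The 7 pluripotency markers summed to 3508 and 3509 CPM in the ES lines, to 29.3 to 62.1 CPM in pXEN and to 3.7 to 6.12 CPM in XEN. In pXEN against XEN edgeR called 2 of the 7 higher (Pou5f1 and Zfp42) and 0 lower, and DESeq2 2 higher and 1 lower. That is 28.6% higher by edgeR, beside 0.918% of all genes. In the rat lines 5 of the 7 have a row, and Nanog, Sox2 and Esrrb were at 0. The other 2, Pou5f1 and Klf2, summed to 6.25 to 164 CPM. Pou5f1 had 163 CPM in CX1 and 6.25 to 8.32 CPM in the MAX lines. The part of these markers in the rat levels was not tested. Fibroblast markers set the XEN group apart: 14 of 15 had counts there and summed to 198 to 264 CPM, against 8.56 to 14.2 CPM in pXEN, where 10 of 15 (Col1a2, Col3a1 and Dcn among them) were at 0, and 10.9 to 12.3 CPM in ES. The part of these cells in any difference of the XEN group was not tested. Bulk RNA cannot separate fewer cells of a type from less RNA per cell.

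Promoter sequences of 6 members that passed the test in at least 1 comparison show the letters that HIF dimers are known to recognise. The core motifs searched were ACGTG and GCGTG, on both strands, in RefSeq promoters of GRCm38.p6 that run from 250 bases before to 50 bases after a start site. The word CACGTG reads ACGTG on both strands and counts as 2 matches. Either motif occurred in 43.8% of all 32851 promoters (ACGTG in 19.6% and GCGTG in 32.4%). Of the members, 33 had a promoter entry (Ero1l under its symbol Ero1a) and 29 had at least 1 match in at least 1 promoter. Counted over promoters, 38 of 50 (76.0%) had one. Both motifs hold the letters CG. Promoters of like CG content were not set apart, so these shares cannot show an enrichment. Epas1, Bnip3l and Ndrg1 had no entry. The promoters below were chosen after the values were seen, as the hypoxia-pathway members with a call and an entry, and Pfkp for its size of change. Capitals mark the motif on either strand, and each is printed 5′ to 3′ on the gene's strand. A match is a description of the letters and not of binding.
Egln3 (chr12:54203825-54204124, minus strand): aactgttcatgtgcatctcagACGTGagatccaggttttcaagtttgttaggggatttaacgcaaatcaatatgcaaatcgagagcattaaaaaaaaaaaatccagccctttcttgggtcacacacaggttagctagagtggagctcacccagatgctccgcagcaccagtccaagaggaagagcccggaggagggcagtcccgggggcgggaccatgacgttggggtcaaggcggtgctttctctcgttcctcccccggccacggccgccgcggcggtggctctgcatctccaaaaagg
Kdm3a (chr6:71632868-71633167, minus strand): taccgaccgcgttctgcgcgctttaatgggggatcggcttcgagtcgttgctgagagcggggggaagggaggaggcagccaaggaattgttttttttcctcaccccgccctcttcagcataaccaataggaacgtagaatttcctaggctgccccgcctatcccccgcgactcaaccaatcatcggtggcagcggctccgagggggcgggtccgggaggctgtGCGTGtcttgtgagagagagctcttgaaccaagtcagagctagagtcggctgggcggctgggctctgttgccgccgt
Bnip3 (chr7:138909457-138909756, minus strand): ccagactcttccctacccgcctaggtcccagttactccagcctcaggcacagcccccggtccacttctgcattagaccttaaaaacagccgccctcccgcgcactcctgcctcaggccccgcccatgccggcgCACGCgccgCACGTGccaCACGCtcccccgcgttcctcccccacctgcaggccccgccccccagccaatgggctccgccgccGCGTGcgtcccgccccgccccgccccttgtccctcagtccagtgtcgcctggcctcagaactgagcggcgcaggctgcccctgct
Ero1l (chr14:45318523-45318822, minus strand): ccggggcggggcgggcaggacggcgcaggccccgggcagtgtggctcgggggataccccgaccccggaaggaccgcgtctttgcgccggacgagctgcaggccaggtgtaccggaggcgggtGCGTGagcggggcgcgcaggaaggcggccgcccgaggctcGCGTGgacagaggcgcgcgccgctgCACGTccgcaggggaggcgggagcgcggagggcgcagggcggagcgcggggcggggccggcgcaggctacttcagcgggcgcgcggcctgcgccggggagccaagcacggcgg
Pdk1 (chr2:71872974-71873273, plus strand): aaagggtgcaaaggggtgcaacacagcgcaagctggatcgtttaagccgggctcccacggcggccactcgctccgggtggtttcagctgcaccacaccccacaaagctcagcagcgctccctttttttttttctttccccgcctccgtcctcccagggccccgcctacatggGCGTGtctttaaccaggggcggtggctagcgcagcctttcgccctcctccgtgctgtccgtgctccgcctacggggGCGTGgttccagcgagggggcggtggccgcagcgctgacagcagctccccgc
Pfkp (chr13:6648722-6649021, minus strand): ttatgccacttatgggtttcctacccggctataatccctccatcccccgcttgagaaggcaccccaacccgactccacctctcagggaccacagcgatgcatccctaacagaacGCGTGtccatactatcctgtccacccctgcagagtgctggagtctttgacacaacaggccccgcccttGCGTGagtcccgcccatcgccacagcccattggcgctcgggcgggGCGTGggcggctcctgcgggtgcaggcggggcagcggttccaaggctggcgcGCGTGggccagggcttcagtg
The Bnip3 window holds 2 matches of ACGTG and 3 of GCGTG, and that of Ero1l 1 and 2. Pfkp has 4 matches and Pdk1 has 2, all of GCGTG. Egln3 has 1 match, of ACGTG, and Kdm3a has 1, of GCGTG. Kdm3a has 3 starts and Pdk1 has 2, and their starts not printed here hold no match. Egln3, Bnip3, Ero1l and Pfkp have 1 start each. Of the other called members with an entry, Tpi1 has no match in its only promoter. Hk1 and Pkm have none in the promoter taken, though another start of each holds a match. Pgam1 and Eno3 have matches, in promoters that are not printed here.

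In pXEN against ES, 2 of 32 tested members were higher (Epas1 and Egln3) and 6 were lower (Pfkp, Pgam1, Eno3, Pkm, Pdk1 and Kdm3a). That is 6.25% and 18.8% of the members, beside 18.2% and 17.8% of all 10895 genes tested. In XEN against ES, 7 were higher (Hk1, Tpi1, Epas1, Egln3, Bnip3, Ero1l and Ndrg1) and 3 lower (Pfkp, Pdk1 and Kdm3a), or 21.9% and 9.38% beside 20.7% and 17.8% of all genes. These comparisons share the ES libraries. In pXEN against XEN, edgeR called 0 members higher and 2 lower (Egln3 and Bnip3l), or 6.25% lower beside 3.63% of all genes, and 0.918% of all genes were higher. At an unadjusted p under 0.05, 0 members were higher and 8 lower there, and DESeq2 called 0 higher and 4 lower. The median log2 fold change of the members was -0.21 in pXEN against ES, 0.31 in XEN against ES and -0.54 in pXEN against XEN, beside -0.03, 0.00 and 0.00 over all genes tested. Of the 32 tested members, 28 had a log2 fold change below 0 in pXEN against XEN (16 of 17 glycolytic enzymes and 11 of 13 oxygen-sensing and hypoxia-induced members), beside 49.8% of all genes tested. Below 0 were 17 members in pXEN against ES and 12 in XEN against ES, beside 51.0% and 49.9% of all genes. These are counts of signs without a test, and genes of the same libraries are not independent.

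By role, the 17 tested glycolytic enzymes had a median log2 fold change of -0.55 in pXEN against ES, with 0 higher and 4 lower (23.5%) by edgeR (2 higher at an unadjusted p under 0.05, and 1 higher by DESeq2). All genes had 18.2% higher and 17.8% lower. In XEN against ES their median was 0.08, with 2 higher and 1 lower (11.8% and 5.88%, beside 20.7% and 17.8% of all genes). In pXEN against XEN it was -0.57, with 0 called in either direction by edgeR, 0 higher and 4 lower at an unadjusted p under 0.05, and 1 lower by DESeq2. The 13 oxygen-sensing and hypoxia-induced members had medians of 0.56, 0.67 and -0.51 in the same order. Of these, 2 were higher and 1 lower in pXEN against ES (15.4% and 7.69%) and 5 higher and 1 lower in XEN against ES (38.5% and 7.69%), to be read against the same shares of all genes. Between pXEN and XEN 0 were higher and 2 lower in pXEN (15.4%, beside 3.63% of all genes), with 0 higher and 4 lower at an unadjusted p under 0.05 and 0 higher and 3 lower by DESeq2. Taken apart, the 7 oxygen-sensing and HIF members had medians of 0.75, 0.33 and -0.10 in the same order. The 6 hypoxia-induced members had medians of -0.07, 0.96 and -1.17. Calls against ES changed with 1 ES line left out, which leaves a lone ES line in its group. Without ES2 fewer members were lower in pXEN and fewer were higher in XEN. Without ES3 fewer were higher in pXEN and in XEN, while more were lower in pXEN. Without XEN1, 4 members were higher in pXEN than in ES.

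**Figure D1:**
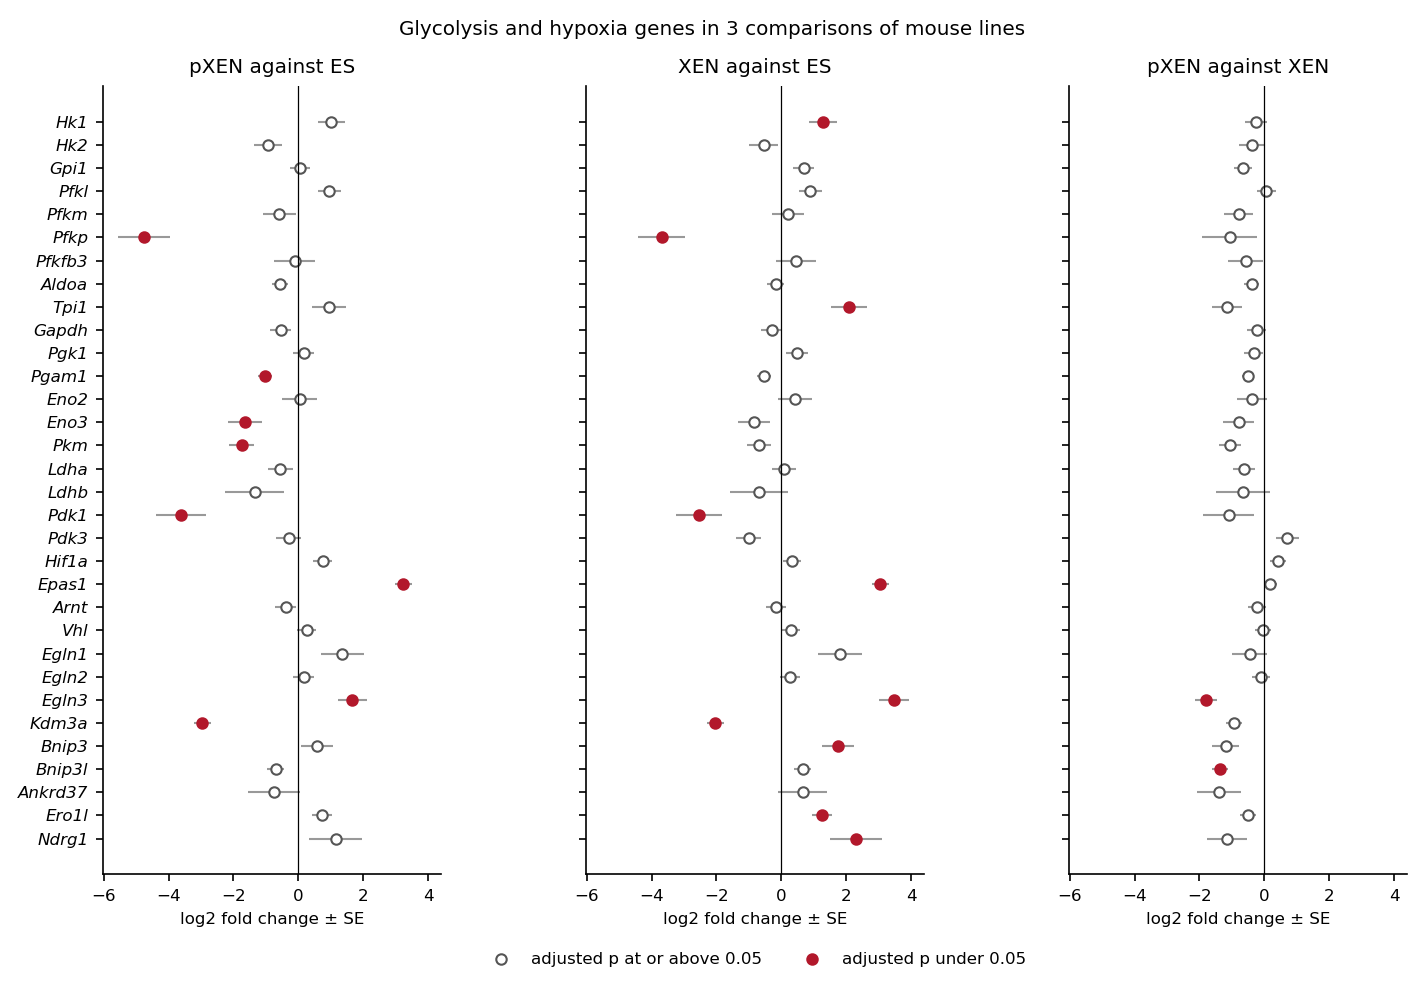
Log2 fold change ± SE (edgeR) of the 32 tested members in 3 comparisons, with filled points for an adjusted p under 0.05. Epas1 and Egln3 lie to the right and Pfkp, Pdk1 and Kdm3a to the left in both comparisons with ES, while in pXEN against XEN only Egln3 and Bnip3l are filled.

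Epas1, which encodes HIF-2α (chromosome 17, 86753700 to 86833410, plus strand, GRCm38) had the smallest adjusted p of all members. Its level was 467, 400 and 316 CPM in pXEN2, pXEN4 and pXEN6, 389, 346 and 302 CPM in XEN1, XEN2 and XEN5, and 40.7 and 42.5 CPM in ES2 and ES3. Every endoderm line lay above both ES lines, and pXEN and XEN overlapped. The gene was 9.47-fold higher in pXEN than in ES (3.24 on the log2 scale, SE 0.262, adjusted p = 8.72e-06) and 8.30-fold higher in XEN (3.05, SE 0.26, adjusted p = 1.37e-05), and passed under all 15 alternatives in both. Between pXEN and XEN the log2 difference was 0.19 (SE 0.2, adjusted p = 0.746). Rat XENP lines had 375, 516, 494 and 684 CPM in CX1, MAX2, MAX3 and MAX8.

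Hif1a, the ubiquitous alpha subunit, had 179, 125 and 179 CPM in the pXEN lines, 79.5, 134 and 147 CPM in the XEN lines, and 99.9 and 91.6 CPM in ES. It did not pass in any comparison; pXEN lay above ES without overlap (log2 fold change 0.75, adjusted p = 0.0672, with 0.0299 to 0.231 over the alternatives). In rat the lines had 538, 519, 524 and 448 CPM. Per kilobase of exon, Epas1 made up 71.9% ± 6.19 of the alpha subunit counts in pXEN (SD, n = 3), 75.1% ± 7.87 in XEN (SD, n = 3) and 31.5% ± 1.98 in ES (SD, n = 2). The larger share thus belonged to Epas1 in all 6 mouse endoderm lines, with a lowest value of 65.1% in pXEN6, and to Hif1a in both ES lines. By counts without division by length, Epas1 took 41.1%, 49.8%, 48.5% and 60.4% in the 4 rat lines, against 70.8% ± 6.33 in pXEN and 74.1% ± 8.09 in XEN (SD, n = 3 each). Arnt, the shared partner, ranged from 16.1 to 28.8 CPM and Vhl, part of the ubiquitin ligase, from 19.3 to 35.2 CPM over the 8 mouse lines. Neither passed in any comparison.

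Egln3, the most hypoxia-inducible of the HIF prolyl hydroxylases (chromosome 12, 54178981 to 54203860, minus strand), separated all 3 mouse groups. It had 11.2, 10.5 and 11.2 CPM in the pXEN lines, 39.0, 45.6 and 30.6 CPM in the XEN lines, and 5.35 and 1.56 CPM in ES2 and ES3. No group overlapped another. It was 11.1-fold higher in XEN than in ES (log2 3.47, SE 0.455, adjusted p = 0.000216) and 3.18-fold higher in pXEN than in ES (1.67, SE 0.456, adjusted p = 0.0143). The latter was 2.06-fold without ES3, the ES line with the lower count, and the call was lost (adjusted p = 0.12), while without ES2 it was 6.93-fold. The fold in XEN was 7.14 without ES3 and 24.2 without ES2, both past the threshold. Egln3 was 3.49-fold lower in pXEN than in XEN (-1.80, SE 0.334, adjusted p = 0.00996) under every alternative run. Rat lines had 63.6, 50.8, 75.4 and 72.3 CPM.

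The other prolyl hydroxylases did not pass. Egln1, the main sensor in most cells, had 24.3, 16.2 and 65.4 CPM in pXEN, 70.1, 26.4 and 49.7 CPM in XEN, and 9.05 and 18.3 CPM in ES, with a log2 difference of 1.82 in XEN against ES (SE 0.679, adjusted p = 0.0624, and 0.0116 to 0.294 over the alternatives). Egln2 was even, with 16.8, 22.5 and 21.8 CPM in pXEN, 28.1, 20.3 and 17.7 CPM in XEN, and 19.7 and 16.8 CPM in ES. Its rat lines had 80.5, 98.9, 107 and 89.3 CPM. Of the family's counts per kilobase, Egln3 took 20.9% ± 6.04 in pXEN (SD, n = 3), 41.2% ± 11.2 in XEN (SD, n = 3) and 11.2% ± 8.72 in ES (SD, n = 2).

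Of the 6 hypoxia-induced members, 3 had a log2 fold change below 0 in pXEN against ES and 1 in XEN against ES. The only one called lower against ES was Kdm3a, in both comparisons (16.7%, beside 17.8% of all genes). It encodes a histone H3K9 demethylase that pluripotent cells are also known to express (chromosome 6, 71588972 to 71632990, minus strand). It had 245 and 197 CPM in the ES lines, 40.5, 63.7 and 58.1 CPM in XEN, and 27.6, 23.3 and 34.2 CPM in pXEN. The groups did not overlap. Kdm3a was 7.79-fold lower in pXEN than in ES (log2 -2.96, SE 0.266, adjusted p = 1.65e-05) and 4.08-fold lower in XEN (-2.03, SE 0.259, adjusted p = 0.000187). It passed under all 15 alternatives in both. In pXEN against XEN it fell short (-0.93, SE 0.243, adjusted p = 0.054), and passed under 4 of 15 alternatives, DESeq2 among them (0.0179). Rat lines had 74.8, 60.1, 87.8 and 73.2 CPM.

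Bnip3 and Bnip3l encode mitophagy receptors of the outer mitochondrial membrane. Bnip3 (chromosome 7, 138890836 to 138909519) had 16.4, 40.6 and 19.8 CPM in XEN1, XEN2 and XEN5, 17.1, 8.83 and 8.04 CPM in pXEN, and 7.81 and 7.4 CPM in ES. It was 3.37-fold higher in XEN than in ES (log2 1.75, SE 0.496, adjusted p = 0.0167), a call lost without ES2 (0.0893) or ES3 (0.0957). Bnip3l (chromosome 14, 66985239 to 67008877) had 51.7, 58.7 and 39.0 CPM in pXEN, 143, 116 and 124 CPM in XEN, and 97.9 and 64.3 CPM in ES. All pXEN lines lay below both other groups. It was 2.56-fold lower in pXEN than in XEN (log2 -1.36, SE 0.237, adjusted p = 0.00751) under every alternative run, while the differences from ES were not called (adjusted p = 0.0554 for pXEN and 0.072 for XEN). Copies elsewhere share 24.2% of the 101-base words of Bnip3 transcripts and 13.9% of those of Bnip3l, so their counts carry that uncertainty. In rat, Bnip3 ran from 19.3 to 31.2 CPM and Bnip3l from 89.7 to 122 CPM.

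Ero1l, an oxidase of disulfide bond formation in the endoplasmic reticulum, had 39.7, 37.5 and 42.0 CPM in XEN, 29.9, 32.5 and 21.2 CPM in pXEN, and 13.6 and 19.9 CPM in ES. XEN lines were highest and ES lines lowest, with no overlap between groups. It was 2.37-fold higher in XEN than in ES (log2 1.25, SE 0.3, adjusted p = 0.00745), a call lost without ES2 (0.0831), and pXEN against ES was not called (0.73, SE 0.298, adjusted p = 0.0766). Ndrg1, a stress-responsive gene, had 4.61, 11.7 and 1.15 CPM in pXEN, 8.18, 16.1 and 14.3 CPM in XEN, and 2.88 and 2.34 CPM in ES. Its 4.91-fold difference in XEN against ES (log2 2.30, SE 0.796, adjusted p = 0.0419) was lost with sex as a covariate (0.0661) and without pXEN2 (0.0567), XEN2 (0.0834), XEN5 (0.0873), ES2 (0.159) or ES3 (0.193). Ankrd37 was low, between 0.658 and 6.67 CPM over the mouse lines, and did not pass.

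**Figure D2:**
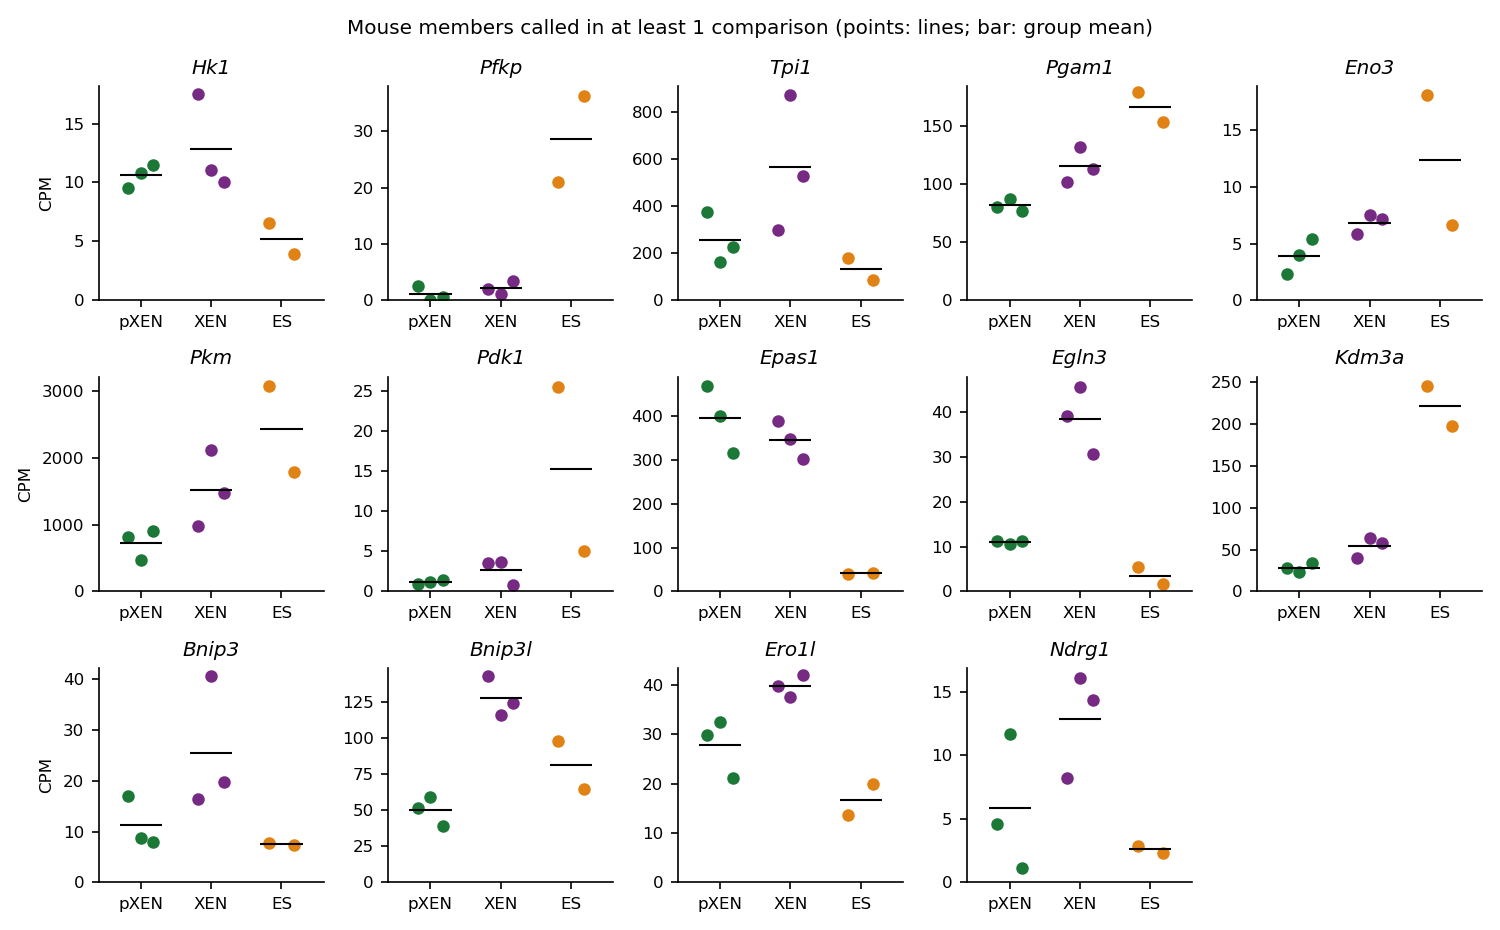
CPM in each of the 8 mouse lines for the 14 members called in at least 1 comparison, with a point for each line and a bar for the group mean, and a separate linear axis from 0 for each gene. Epas1 is high in all 6 endoderm lines, Kdm3a is high in ES, and the Egln3 points of pXEN sit between 10.5 and 11.2 CPM, below every XEN line.

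Among the glycolytic enzymes the largest difference was in Pfkp, the platelet-type subunit of phosphofructokinase, which commits sugar to glycolysis (chromosome 13, 6579768 to 6648777, minus strand). It had 2.63, 0 and 0.574 CPM in pXEN, 1.95, 1.11 and 3.43 CPM in XEN, and 21.0 and 36.2 CPM in ES. Summed over lines, 10 counts fell on it in the pXEN group, 22 in the XEN group and 144 in the ES group. Pfkp was 27.1-fold lower in pXEN than in ES (log2 -4.76, SE 0.79, adjusted p = 0.00105) and 12.9-fold lower in XEN (-3.69, SE 0.724, adjusted p = 0.00286), under all 15 alternatives in both. The size rests on few counts: the pXEN fold was 88.1 without pXEN2 and 17.9 without pXEN4. In the rat endoderm lines Pfkp had 292, 360, 278 and 314 CPM.

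The liver-type subunit Pfkl carried most phosphofructokinase counts of the mouse endoderm lines, without division by length. It had 150, 235 and 180 CPM in pXEN, 115, 249 and 178 CPM in XEN, and 120 and 75.2 CPM in ES. The difference in pXEN against ES was not called (log2 0.95, SE 0.349, adjusted p = 0.0527), though 7 of 15 alternatives passed, nor was that in XEN (0.89, SE 0.348, adjusted p = 0.0625, with 3 of 15). The muscle-type subunit Pfkm had 19.7, 20.8 and 46.2 CPM in pXEN, 58.5, 65.3 and 26.7 CPM in XEN, and 59.6 and 27.3 CPM in ES. As a share of family counts, Pfkp took 0.593% ± 0.818 in pXEN (SD, n = 3), 1.04% ± 0.651 in XEN (SD, n = 3), 18.3% ± 11.1 in ES (SD, n = 2) and 63.6% ± 0.955 in rat XENP (SD, n = 4). Pfkl took 86.1% ± 6.3, 76.7% ± 10.1, 57.0% ± 3.92 and 31.7% ± 2.97 in the same order. The rat lines, derived from another species and counted on another genome, thus had Pfkp first and Pfkl second, where each mouse line had Pfkl first by counts. Per kilobase Pfkp took 0.264% in pXEN, 0.432% in XEN and 8.2% in ES, while Pfkl took 76.6%, 63.8% and 49.4%. On this scale Pfkm was ahead of Pfkl in XEN1 (50.1% against 49.5%) and close to it in ES2 (47.8% against 48.0%). Over 42 comparisons of paralog shares between mouse groups, exact two-sided permutation tests over lines cannot go below p = 0.2 against ES or 0.1 between pXEN and XEN, and the smallest adjusted value was 0.467.

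**Figure D3:**
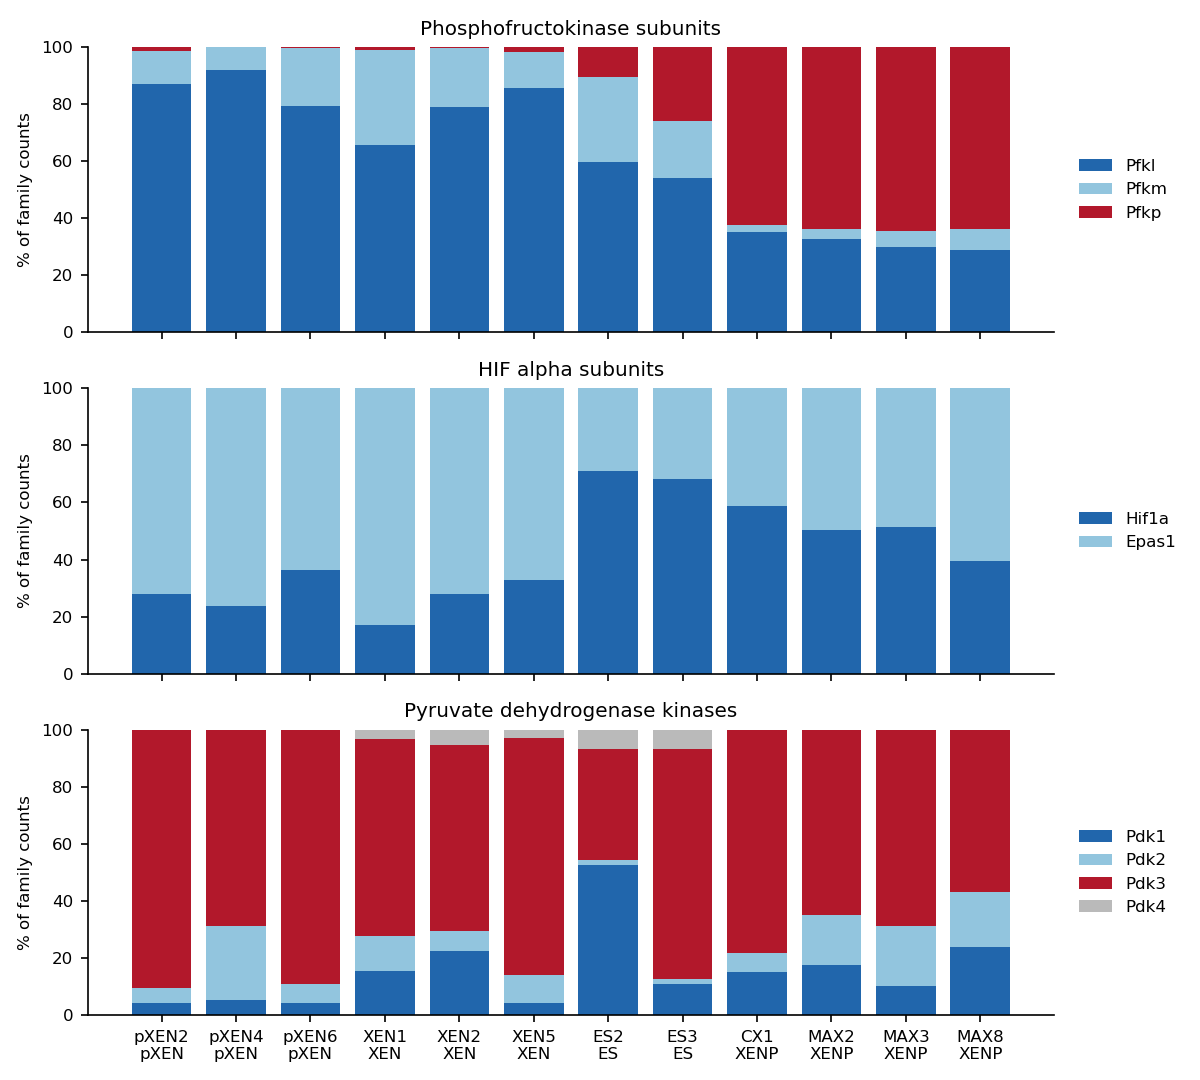
Share of family counts (percent) taken by each phosphofructokinase subunit, HIF alpha subunit and pyruvate dehydrogenase kinase in each of the 12 lines. Pfkp takes 62.3% to 64.5% in the rat lines and at most 1.65% in the mouse endoderm lines, and Epas1 exceeds Hif1a in all 6 mouse endoderm lines.

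At the lower end of the pathway 3 enzymes were lower in pXEN. Pkm, pyruvate kinase (chromosome 9, 59656368 to 59679375), had 807, 467 and 902 CPM in pXEN, 975, 2111 and 1477 CPM in XEN, and 3076 and 1788 CPM in ES. All pXEN lines lay below all XEN and ES lines. It was 3.35-fold lower in pXEN than in ES (log2 -1.75, SE 0.372, adjusted p = 0.00484), a call lost without ES2 (0.0593). In pXEN against XEN it was not called (-1.07, SE 0.34, adjusted p = 0.135, and 0.0289 by DESeq2). Gene counts do not separate the PKM1 and PKM2 splice forms. Pgam1, phosphoglycerate mutase (chromosome 19, 41911923 to 41918660), had 80.6, 87.4 and 76.6 CPM in pXEN, 102, 132 and 113 CPM in XEN, and 179 and 153 CPM in ES, with no overlap. It was 2.04-fold lower in pXEN than in ES (log2 -1.03, SE 0.212, adjusted p = 0.00315) under every alternative, and the XEN difference was not called (adjusted p = 0.0696). Pseudogenes and other genes share 33.9% of the 101-base words of Pgam1 transcripts. Eno3, the muscle enolase, had 2.3, 3.99 and 5.45 CPM in pXEN, 5.85, 7.51 and 7.13 CPM in XEN, and 18.1 and 6.63 CPM in ES. Its 3.11-fold lower level in pXEN than in ES (log2 -1.64, SE 0.514, adjusted p = 0.0275) was lost with sex as a covariate (0.0617) and without pXEN2 (0.0836), pXEN4 (0.0509) or ES2 (0.443, with a fold of 1.67).

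Hk1 and Tpi1 were the enzymes higher in XEN. Tpi1, triosephosphate isomerase, had 298, 871 and 529 CPM in XEN, 377, 164 and 228 CPM in pXEN, and 181 and 84.6 CPM in ES. It was 4.27-fold higher in XEN than in ES (log2 2.10, SE 0.554, adjusted p = 0.0168), a call lost without ES3 (0.112), and 6.73-fold without ES2. Hk1, a hexokinase found in most tissues, had 17.5, 11.1 and 10.0 CPM in XEN, 9.54, 10.8 and 11.5 CPM in pXEN, and 6.58 and 3.9 CPM in ES. Its 2.44-fold difference in XEN against ES (log2 1.29, SE 0.421, adjusted p = 0.0319) was lost by DESeq2 (0.067), with only these groups in the fit (0.0515) and without XEN1 (0.0911), ES2 (0.054) or ES3 (0.202). Hk2, the insulin-responsive hexokinase, had 22.4, 9.11 and 10.0 CPM in pXEN, 12.5, 24.5 and 16.6 CPM in XEN, and 20.6 and 32.0 CPM in ES, and did not pass.

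The remaining enzymes did not pass in any comparison, although several are among the most abundant transcripts of the set. Gapdh ranged from 624 to 1494 CPM over the 8 mouse lines, Ldha from 419 to 1254 CPM, Aldoa from 368 to 724 CPM, Pgk1 from 248 to 659 CPM and Gpi1 from 72.5 to 179 CPM. Ldhb, the heart-type lactate dehydrogenase, ranged from 4.56 to 82.2 CPM, with its lowest values in pXEN4 and XEN2 (11.7 CPM). Pfkfb3, which makes the activator of phosphofructokinase, stayed between 2.56 and 12.2 CPM, Eno2 between 2.34 and 8.64 CPM and Aldoc between 0.329 and 6.99 CPM. Pgk1 shares 51.6% and Gapdh 20.8% of its 101-base words with other genes. Eno1, the main enolase of most cells, was listed at 0 in 7 of the 8 mouse lines and had 1 count in XEN2. Eno1 shares 20.3% of its 101-base words with other genes, among which Eno1b had the most occurrences of such words. In rat the Eno1 row had 974, 988, 818 and 610 CPM. Tpi1 was the reverse, with 1 count in CX1 and 0 in the other rat lines, and Eno2 had 0 counts in all 4. These rows were not read as absence, and what sets them was not tested.

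Per kilobase of exon, Pkm was the highest glycolytic member in ES (486 CPM per kilobase, before Gapdh with 300.0 and Ldha with 247) and in XEN (304, before Ldha with 261 and Gapdh with 244). In pXEN the order was Gapdh (206), Ldha (168), Pgk1 (152) and Pkm (145). Within lines, Pkm was first in both ES lines and all 3 XEN lines, and Gapdh was first in all 3 pXEN lines. The order of the others among these 4 genes was the same in both ES lines and varied between lines in pXEN and XEN. Summed over the 19 enzymes, glycolytic counts made up 0.61%, 0.452% and 0.6% of gene counts without Rn45s in pXEN. The sums were 0.554%, 1.2% and 0.819% in XEN and 1.1% and 0.7% in ES. In rat XENP, where Gpi1 has no row, 18 enzymes summed to 0.784%, 0.798%, 0.715% and 0.699%. Eno1 adds to the rat sums and hardly to those of mouse, and Tpi1 and Eno2 do the reverse, so the species are not compared. The mean was 0.554% ± 0.0885 in pXEN (SD, n = 3), 0.858% ± 0.325 in XEN (SD, n = 3) and 0.9% ± 0.283 in ES (SD, n = 2). XEN overlapped both other groups, with XEN1 inside the pXEN range, while every pXEN line lay below both ES lines. With Rn45s kept in the total this did not hold, as ES3 then lay below every pXEN line. Single lines moved many enzymes at once: ES2 was above ES3 in 14 of 17 tested enzymes, and of the XEN lines XEN2 was highest in 11 and XEN1 lowest in 11. XEN1 was also the only female XEN line and the one of lowest passage (9 to 10, against 19 to 21), and the part of either in the spread was not tested. The 13 oxygen-sensing and hypoxia-induced members summed to 0.122% ± 0.011 in pXEN (SD, n = 3), 0.139% ± 0.00346 in XEN (SD, n = 3) and 0.0822% ± 0.00813 in ES (SD, n = 2). In rat XENP the sum was 0.153% ± 0.0154 (SD, n = 4), without Egln1 and Ero1l, which have no rat row.

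**Figure D4:**
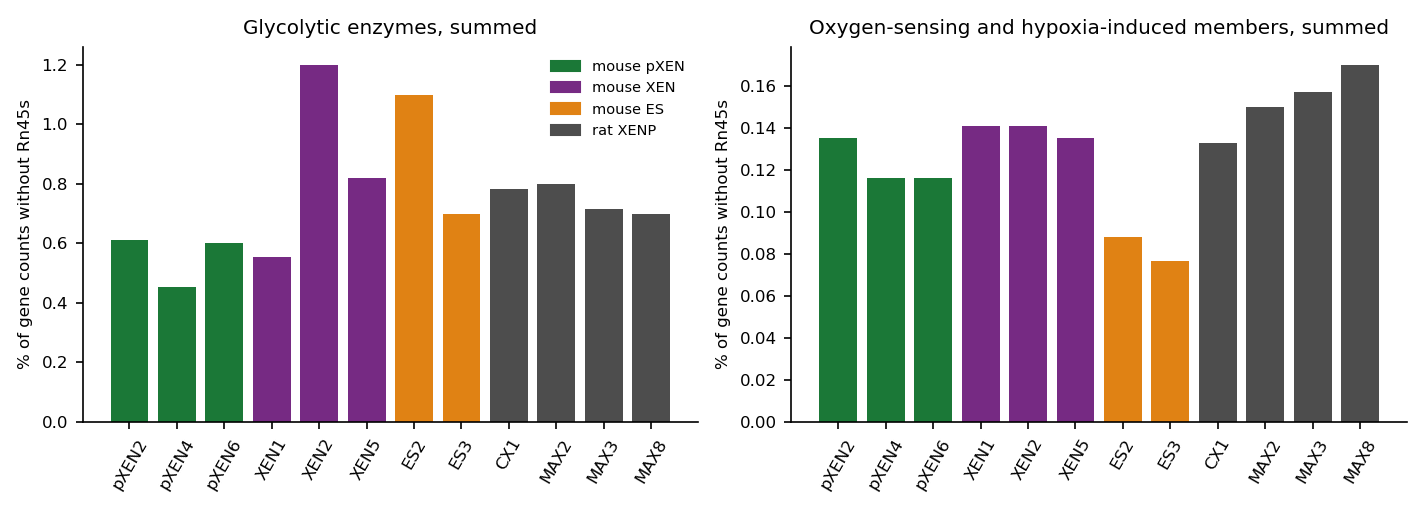
Summed counts per line as percent of gene counts without Rn45s, for the 19 glycolytic enzymes (left) and the 13 oxygen-sensing and hypoxia-induced members (right). The rat bars lack Gpi1 on the left and Egln1 and Ero1l on the right. XEN2 and ES2 have the tallest glycolytic bars, 1.2% and 1.1%, and both ES lines have the lowest bars on the right, 0.088% and 0.0765%.

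The pyruvate dehydrogenase kinases were mostly low in mouse. Pdk1, the hypoxia-induced kinase (chromosome 2, 71873224 to 71903858), had 0.987, 1.14 and 1.43 CPM in pXEN, 3.51, 3.61 and 0.793 CPM in XEN, and 25.5 and 5.07 CPM in ES2 and ES3. The ES lines lay above all others but differed widely from each other. Pdk1 was 12.4-fold lower in pXEN than in ES (log2 -3.63, SE 0.771, adjusted p = 0.00372) and 5.82-fold lower in XEN (-2.54, SE 0.717, adjusted p = 0.0163). Without ES2 the folds were 4.13 and 1.93 and both calls were lost (0.144 and 0.489), while without ES3 they were 20.6 and 9.71. Pdk3 was the most abundant kinase by counts in every mouse line but ES2, with 22.0, 15.1 and 31.0 CPM in pXEN, 15.6, 10.6 and 15.6 CPM in XEN, and 18.9 and 37.0 CPM in ES, and did not pass. Pdk2 ranged from 0.779 to 5.69 CPM in mouse. Pdk4 had 0 counts in pXEN, where 3 counts would be 0.299 CPM, 7 counts in XEN and 16 in ES. In the rat lines Pdk3 again took the largest share, 67.2% ± 8.92 of kinase counts (SD, n = 4), with Pdk1 at 46.7, 50.8, 27.7 and 58.0 CPM and Pdk2 at 20.9, 50.8, 56.3 and 47.3 CPM.

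Other enzymes of sugar metabolism lie outside the 36. Of 24 further glycolytic and gluconeogenic genes 13 were tested, and against ES 7 rose and 1 fell in pXEN, with 6 and 1 in XEN. In pXEN against XEN 1 was higher (7.69%, beside 0.918% of all genes) and 0 lower. At an unadjusted p under 0.05, 2 were higher and 0 lower there, and DESeq2 called 1 higher and 0 lower. Those that rose against ES are 53.8% in pXEN and 46.2% in XEN, beside 18.2% and 20.7% of all genes, and those that fell 7.69% in both, beside 17.8%. Their median log2 fold change was 0.92, 0.76 and 0.00 in these comparisons. Hkdc1, a hexokinase-domain protein, had 83.6, 92.2 and 65.4 CPM in pXEN and 81.1, 97.3 and 55.5 CPM in XEN, against 3 counts over the ES lines (adjusted p = 5.2e-06 and 4.71e-06). Per kilobase it stood at 15.7 CPM in pXEN and 15.2 in XEN, where Hk2 had 2.32 and 2.99 and Hk1 1.24 and 1.51. The phosphoglucomutase Pgm2 was 6.57-fold and 6.56-fold higher (adjusted p = 0.000343 and 0.000373). Tigar, a fructose bisphosphatase that slows glycolysis, was 5.53-fold lower in pXEN (adjusted p = 0.00245) and 2.97-fold lower in XEN (0.0205), the latter lost without XEN1, XEN5 or ES2 (up to 0.146). G6pc3, a glucose-6-phosphatase, was 2.83-fold and 3.10-fold higher (adjusted p = 0.0119 and 0.00779), and both calls were lost without ES2 or ES3 (up to 0.0707). Pfkfb4 was 5.60-fold higher in pXEN than in XEN (adjusted p = 0.0206), lost with sex as a covariate and without pXEN6, XEN1 or XEN5 (up to 0.0805).

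Of 19 genes of glucose and lactate transport and pyruvate entry 16 were tested, and against ES 3 rose and 4 fell in pXEN, and 3 and 3 in XEN. Of the tested genes of this list that is 18.8% higher and 25.0% lower in pXEN and 18.8% in each direction in XEN, beside 18.2% and 17.8%, and 20.7% and 17.8%, of all genes. In pXEN against XEN edgeR called 0 (0 higher and 0 lower at an unadjusted p under 0.05, and 0 by DESeq2). Their median log2 fold change was -0.53, -0.28 and -0.09 (-0.53, -0.28 and 0.01 with Slc5a1 at the bound that 3 counts allow). The lactate carrier Slc16a1 (MCT1) had 1161, 1820 and 935 CPM in pXEN, 630, 1351 and 626 CPM in XEN, and a mean of 241 CPM in ES. It was 5.42-fold higher in pXEN (adjusted p = 0.00178) and 3.61-fold higher in XEN (0.00657, and 0.0746 without ES3). Its chaperone Bsg was 1.99-fold and 2.27-fold higher (adjusted p = 0.00331 and 0.0013). Pdha1, a subunit of pyruvate dehydrogenase, was 1.89-fold and 1.97-fold lower (adjusted p = 0.0193 and 0.0142); both calls were lost without ES3 and the former also without pXEN2 or pXEN4 (up to 0.182 and 0.139). The sodium-glucose carrier Slc5a1 had 0 counts in pXEN, 1 in XEN and 6.99 and 67.8 CPM in ES2 and ES3 (adjusted p = 0.00336 and 0.00407, and above 0.05 with only pXEN and ES in the fit, 0.0594, or without XEN5, 0.0523).

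Of 17 further genes listed with oxygen sensing and HIF regulation, chaperones among them, 16 were tested. Against ES 2 rose and 5 fell in pXEN, and 2 and 3 in XEN. In pXEN against XEN 0 were higher and 2 lower (0 higher at an unadjusted p under 0.05 and 0 by DESeq2). Against ES these are 12.5% higher and 31.2% lower in pXEN, beside 18.2% and 17.8% of all genes, and 12.5% and 18.8% in XEN, beside 20.7% and 17.8%. Lower in pXEN than in XEN were 12.5%, beside 3.63%. Their median log2 fold change was -0.48, -0.06 and 0.01. Cited2, a hypoxia-induced competitor of HIF for its coactivators, had 30.9, 23.3 and 29.0 CPM in pXEN, 48.3, 114 and 104 CPM in XEN, and 6.58 and 10.1 CPM in ES. It was 10.6-fold higher in XEN than in ES (adjusted p = 0.000165) and 3.20-fold lower in pXEN than in XEN (0.0115), the same order of groups as Egln3. The deacetylase Sirt1 was 2.58-fold lower in pXEN and 2.66-fold lower in XEN (adjusted p = 0.00243 and 0.00213), and the chaperone Hsp90ab1 1.90-fold and 1.92-fold lower (0.00565, and 0.0558 without ES3, and 0.0052). Hspa5, the endoplasmic reticulum chaperone, was 3.75-fold and 3.16-fold higher (0.00407 and 0.00792, the latter lost without ES2 or ES3, up to 0.0745). Arnt2, a paralog of Arnt, was 19.9-fold lower in pXEN than in ES, on 4 counts (0.00269). Siah2 had 3 counts in pXEN and 40 in XEN (adjusted p = 0.0317), and was lost with sex as a covariate and without pXEN2, pXEN4, pXEN6, ES2 or ES3 (up to 0.0872).

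Of 26 further hypoxia-induced genes 22 were tested, and against ES 8 rose and 5 fell in pXEN, 13 and 2 in XEN, and 0 higher and 2 lower in pXEN than in XEN (0 higher at an unadjusted p under 0.05 and 0 by DESeq2). Against ES these are 36.4% higher and 22.7% lower in pXEN, beside 18.2% and 17.8% of all genes, and 59.1% and 9.09% in XEN, beside 20.7% and 17.8%. The share lower in pXEN than in XEN was 9.09%, beside 3.63%. The median log2 fold change was 0.35, 1.12 and -0.38 (0.47, 1.12 and -0.38 with genes absent from a group at the bound that 3 counts allow). The largest gains were enzymes that modify collagen, which endoderm lines secrete into basement membrane. Plod2, a lysyl hydroxylase, was 26.4-fold and 34.4-fold higher (adjusted p = 1.65e-06 and 1.39e-06), the prolyl hydroxylase subunit P4ha1 30.5-fold and 42.0-fold (6.93e-06 and 4.77e-06), and P4ha2 was 66.1-fold higher in pXEN (1.59e-05). Loxl2 had 116, 44.4 and 71.2 CPM in pXEN and 152, 162 and 134 CPM in XEN against 2 counts in ES (3.35e-05 and 1.74e-05). Lox, a lysyl oxidase, had 187, 268 and 351 CPM in XEN, 0 counts in pXEN and 1 in ES (adjusted p = 1.49e-05 in pXEN against XEN and 8.88e-06 in XEN against ES). It is high in the group that holds fibroblast markers at 198 to 264 CPM, and the part of the feeders in its level was not tested.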

How the data were processed

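Total RNA of 12 lines was depleted of ribosomal RNA and sequenced as strand-specific paired ends on an Illumina HiSeq, per the labels' protocols. The authors deposited whole-number read counts per gene, 1 table per line, in an unstranded and 2 stranded columns, as read from the values. The submitters' processing notes name CASAVA 1.8.2, Trimmomatic 0.33, STAR 2.5.1, DESeq2 and the builds mm10 and rn6. The gene models counted were not given in the sources used here. Column 4 (reverse strand) entered all tests, since it held 98.9% to 99.3% of stranded counts in mouse and 99.1% to 99.2% in rat. Rows of read classes were left out, and the unstranded column was an alternative. The deposited tables call the mouse pXEN lines XENP, and the labels' titles and cell types were followed.

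Mouse groups were compared with edgeR 4.0.16 (R 4.3.3): all 8 mouse libraries in 1 fit, TMM scaling, filterByExpr (minimum count 10), robust quasi-likelihood fit and test, and Benjamini-Hochberg adjustment over 10895 genes, with a threshold of 0.05. A gene is called where its adjusted p is under this value. SE is the absolute log2 fold change over the square root of F. The script was tested on simulated counts. Replicates are lines, so each p-value weighs a group difference against the spread between lines. That spread is estimated over all 8 mouse libraries together and moderated over genes. Alternatives were the unstranded column, upper-quartile scaling, DESeq2 1.42.0, Rn45s left out, no filter, only the compared groups, sex as a covariate, and each mouse line left out.

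Lengths, coordinates and shared 101-base words come from GENCODE vM21 (GRCm38), where all 36 symbols matched. A length is that of all annotated exons of a gene together, each base counted once. Shares and orders per kilobase depend on this choice. Counts of genes with near-identical copies are uncertain. No rat annotation was used. The members and lists were chosen with earlier results of these data known. All members are named, and of each further list up to 4 called genes with the smallest adjusted p per comparison. 1 gene that this rule names is not reported here.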

Additional observations from a re-analysis of the deposited data

Results flagged for a closer look

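Pfkp had counts on the opposite strand: 49 over the pXEN lines (83.1% of its stranded counts, beside 10 on its own strand), 50 over the XEN lines (69.4%, beside 22) and 26 over the ES lines (15.3%, beside 144). Ankrd37 had 6 such counts in pXEN (26.1%, beside 17). The comparisons do not use that column, and for both genes the called or uncalled state was the same with unstranded counts. Over the XEN lines the unstranded column also gave 22 counts for Pfkp, so it cannot show what the opposite-strand reads would change. Their part was not tested.

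In rat, the Tpi1 level of 0.805 CPM in CX1, which is 1 count, stood apart from the other 3 lines, all at 0. With 3 lines at 0 any single count stands apart, so the usual rate of about 1 in 20 groups does not apply to it. Of the members, 31 rat groups of 4 lines were examined this way.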

How the results depend on the processing

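None of the 20 calls of members changed direction under the 15 alternatives, while of the 76 comparisons of members without a call 22 changed sign under at least 1. The 20 calls stayed past the threshold in 277 of their values and fell short in 23, while members without a call passed in 39 of their values and not in 1091. Members higher in pXEN than in ES, 2 in the report, were 4 without the filter, 4 with only these groups and 5 with sex as a covariate; members lower in XEN than in ES went from 3 to 5 with upper-quartile scaling, which lowers the median gene by 0.10 (pXEN) and 0.11 (XEN) on the log2 scale against ES; members lower in pXEN than in XEN went from 2 to 4 with DESeq2. The cause was not tested. With 1 line left out, members higher in pXEN than in ES ranged from 1 to 4, members lower from 3 to 7, and members higher in XEN than in ES from 3 to 8. Over all genes the ranges were 1168 to 2030 higher in pXEN than in ES (1978 with all lines), 1277 to 2346 higher in XEN than in ES (2251) and 1197 to 2012 lower (1937), and 63 to 86 higher (100) and 255 to 368 lower (396) in pXEN than in XEN. The lowest came without ES2 in the comparisons with ES, without XEN1 for 63 and without pXEN2 for 255. Where an ES line is left out, the lone ES line is assumed to vary like the other groups.

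Without division by length the Pfkl share in ES was 57.0% in place of 49.4%, and the Pfkp share 1.04% in place of 0.432% in XEN and 18.3% in place of 8.2% in ES. With Rn45s kept in the total the glycolytic sum was 0.387% in pXEN and 0.514% in ES, in place of 0.554% and 0.9%. On that scale ES3 had 0.35%, below pXEN2, pXEN4 and pXEN6 with 0.366%, 0.359% and 0.435%. No paired analysis was possible because the numbers in the labels are names of separately derived lines and the compared groups share only 1 of them. Depth limits Pfkp, Pdk1 and Ankrd37, which rest on 10, 12 and 17 counts in pXEN.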
